A study of Homo sapiens with 2 samples.

Results

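TNRC6A was lower along nearly its whole length in HepG2 cells after knockdown of TUC338. TNRC6A encodes a scaffold protein of microRNA-guided silencing. It is 1 of 2792 genes in the table and was followed at the 28 probe sets that the array's annotation assigns to it alone, out of 45200 probe sets in the table and 42575 that carry a single gene symbol. No probe set lists TNRC6A together with another symbol, so no member was set aside, and no filter on low values was applied. The gene was chosen by its knockdown minus control difference on these same arrays, where it was among the lowest. That difference is therefore given as a description, with no test.

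HepG2 is a human hepatoma line. The cells were grown on collagen-coated plates and transfected with a locked nucleic acid oligonucleotide (LNA, a chemically stabilised antisense strand) against TUC338 or with a control LNA. TUC338 is a noncoding transcript with an ultraconserved element, and the study asked what its knockdown does to gene expression. One array of amplified, biotin-labelled total RNA stands for each condition, so every difference compares 2 arrays, no spread between cultures is known, and no p-value can be given.

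Argonaute proteins carry a microRNA to its target mRNA, and proteins of the TNRC6 (GW182) family bind to Argonaute through tryptophan-containing repeats. The family then recruits the PAN2-PAN3 and CCR4-NOT deadenylases, which shorten the poly(A) tail. Shortened mRNAs are decapped and degraded, and many of these factors gather in cytoplasmic processing bodies (P-bodies), where TNRC6A was first known as the autoantigen GW182.

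The arrays differed in overall brightness, with median intensities of 422 (control) and 507 (knockdown). The median over 2792 genes of the mean log2 difference, knockdown minus control, was 0.28. Differences called relative to the median gene have this value subtracted, and deposited differences do not. The 5 of 16 hepatocyte markers in the table, ALB, APOB, APOH, TF and FGG, each had a brightest probe set above 98.98% of all probe sets. Of the other cell types, COL1A1 and PDGFRB of 5 fibroblast markers and LCP1 of 5 leukocyte markers were in the table, with brightest probe sets above 66.7%, 47.1% and 30.5% of all. None of the 4 endothelial markers had a single-symbol probe set in the table. COL1A1 lay 0.90 below the median gene at its mean over 14 probe sets and PDGFRB 0.22 above it over 7, and the part of such cells in the results was not tested. PCBP2, the gene in which TUC338 lies, averaged -0.89 ± 0.35 (SD over 13 probe sets) relative to the median gene and -0.61 in deposited values. No probe set is annotated to TUC338 itself, whose knockdown the design notes give as tested by the submitters.

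Probe sets of this array cover roughly an exon each. Their identifiers run along the genome: for 56 genes on the strand of chromosome 16 that holds TNRC6A, the order of identifiers and the order of RefSeq gene starts gave a Spearman rho of 1. The 28 probe sets are therefore numbered 1 to 28 from the 5′ side of the gene. The exon that each probe set covers was not analysed here.

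Intensities of TNRC6A on the control array ran from 51.9 to 2817, with a median of 907. On the knockdown array they ran from 58.2 to 1368, with a median of 533. The knockdown value was below the control value at 26 of 28 probe sets, against 24.8% of all single-symbol probe sets. Relative to the median gene 27 of 28 were lower, where 52.1% of all probe sets were, and 22 of 28 lay 2-fold or more below it, where 1.13% did. In deposited values 5 of 28 were at least 2-fold lower, where 0.251% of all were. These shares describe the gene by the contrast that chose it. The percentages pool probe sets over all genes, so they do not tell how rare such a gene is. Counted by gene, 134 of 1804 with 10 or more probe sets matched or passed TNRC6A in the share lying below the median gene, TNRC6A among them.

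The mean log2 level was 9.48 in control cells and 8.73 after the knockdown. The mean deposited difference was -0.75, or 59.7% of the control level. Relative to the median gene it was -1.03 ± 0.41 (SD over 28 probe sets, which are not replicates), or 2.04-fold lower, and the median over probe sets was -1.12. The intensities of all 28 summed to 26718 in control cells and 14953 after the knockdown, which is 56.0%. Each array measured total RNA of many cells together, so fewer cells expressing the gene and less RNA per cell cannot be told apart.

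**Figure D1:**
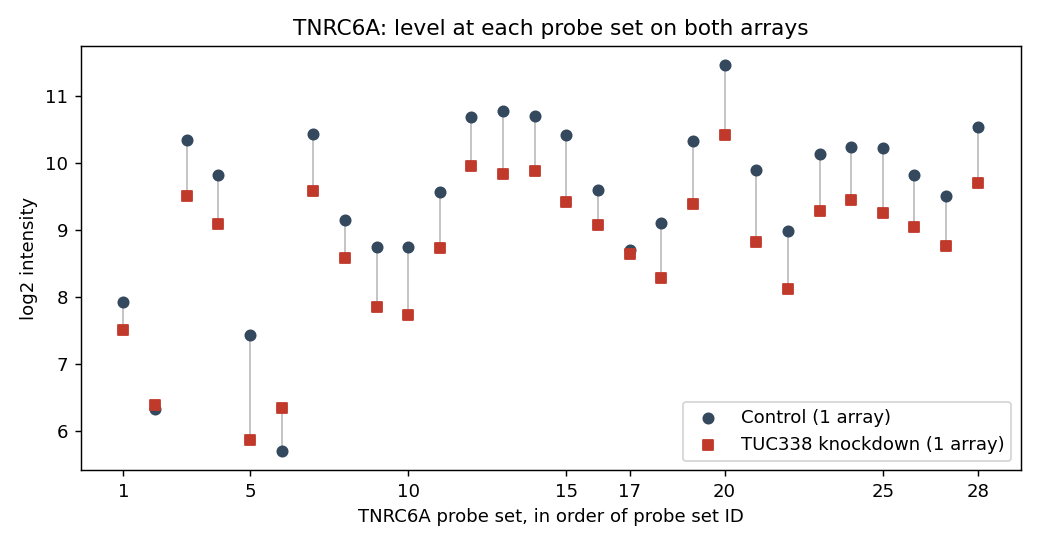
Log2 intensity (vertical axis) of the 28 TNRC6A probe sets in order of probe set ID (horizontal axis) on the control array (circles) and the knockdown array (squares), with a grey line joining the values of 1 probe set. The control value is the higher at 26 probe sets, and the exceptions are numbers 2 and 6, both among the dimmest.

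The 5′ side was the uneven stretch. Number 1 (3653411) read 182 in the knockdown against 243, which is -0.70 relative to the median gene. Number 2 (3653420) read 83.5 and 80.5, which is level in deposited values and -0.23 relative to the median gene. Numbers 3 (3653427) and 4 (3653429) were well lit and lower: number 3 read 727 against 1303, and number 4 read 543 against 907. Their relative differences were -1.13 and -1.02.

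Numbers 5 and 6 lay at opposite ends. Number 5 (3653430) read 58.2 in the knockdown and 173 in the control, which at -1.86 was the lowest relative difference of the gene. Number 6 (3653431) read 81.3 and 51.9, and at 0.36 it was the only probe set above the median gene. Numbers 2, 5 and 6 were the only TNRC6A probe sets whose mean level was under the 1st percentile of the whole table, and that percentile of intensity was 115 for knockdown cells and 94.9 for control cells. Numbers 2 and 6 were under it on both arrays. Number 5 was above it on the control array, so its low knockdown value put it among the dim probe sets. The mean level uses the same 2 values as the difference.

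Dim probe sets scattered more throughout the table. Among genes with at least 10 probe sets, single probe sets departed from their gene's mean by an SD of 0.35 for the 332 under the 1st percentile of level. The SD was 0.29 between that level and the median, and 0.23 at or above the median. Number 6 departed from the TNRC6A mean by 1.39, the largest departure among the 332. Numbers 2 and 5 departed by 0.80 and -0.83, which 3.31% and 2.71% of the 332 equalled or passed in size.

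Numbers 7 to 16 were all lower, with relative differences from -1.30 to -0.82 and a mean of -1.10 ± 0.17. Number 7 (3653436) read 767 in the knockdown and 1380 in the control, or 55.6% of control. Number 10 (3653446) read 211 against 427, number 13 (3653461) 912 against 1756, and number 15 (3653464) 680 against 1371. The smallest differences of this run were at number 8 (3653444), with 385 against 566, and number 16 (3653465), with 536 against 777. Every one of these 10 probe sets thus kept between 49.4% and 69.0% of its control intensity.

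Number 17 (3653467) stood apart from its neighbours. It read 400 in the knockdown and 418 in the control, or 95.7% of control, while number 16 before it was at 69.0% and number 18 (3653468) after it at 56.5%. Its relative difference was -0.35. It was not dim, with a level above 44.3% of all probe sets, close to the 44.8% of number 18. It departed from the TNRC6A mean by 0.68. Of the 17604 probe sets between the 1st percentile and the median level, 2.37% departed as far from their own genes. Number 17 was singled out after the values were seen, as the smallest difference of the 25 probe sets that were not dim. That share is therefore a description and not a measure of rarity.

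Numbers 18 to 28 formed the most even stretch of the gene, with a mean of -1.17 ± 0.11 and every one 2-fold or more below the median gene. The brightest probe set of the gene, number 20 (3653477), read 1368 in the knockdown and 2817 in the control, or 48.6%. Number 21 (3653479) had the largest difference of this stretch, with 451 against 949, a relative difference of -1.36. The last, number 28 (3653488), read 834 and 1487. The others lay between -1.25 and -1.03. In this stretch the knockdown intensity was 47.5% to 59.7% of control.

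**Figure D2:**
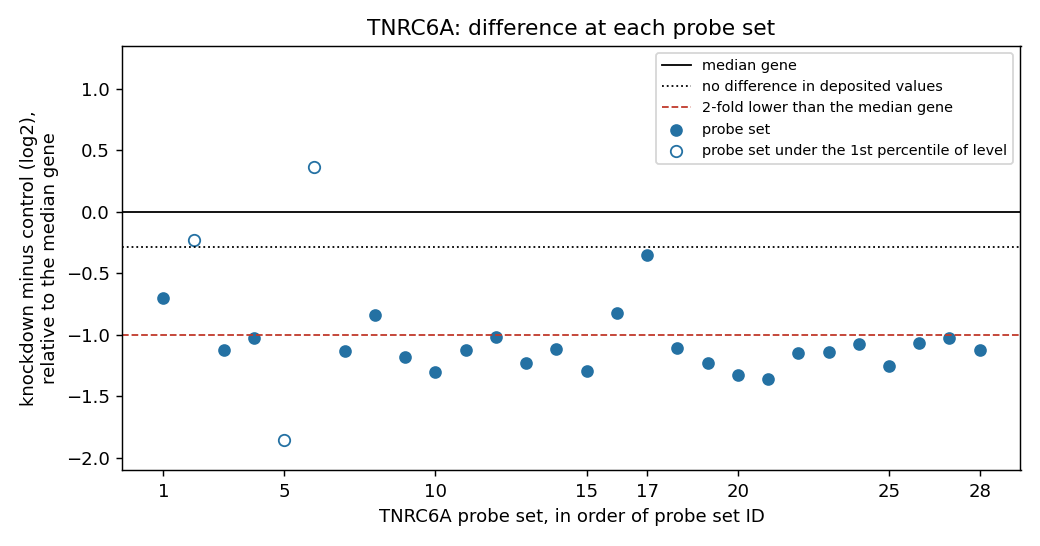
Knockdown minus control (log2, vertical axis) relative to the median gene at each TNRC6A probe set in order of ID (horizontal axis), with open circles for the 3 probe sets under the 1st percentile of level. The dotted line marks equal deposited values, 0.28 below the median gene, and the dashed line a 2-fold lower value, under which 22 of 28 probe sets lie.

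Brightness and position were then set against the size of the difference. The 19 probe sets at or above the median level of the table were all lower, by -1.12 ± 0.14 on average. The 9 below it had a mean of -0.83 ± 0.67, and the 6 of these that were not under the 1st percentile one of -0.96 ± 0.36. Across the 28 probe sets the relative difference and the mean level had a Pearson r of -0.49 and a Spearman rho of -0.29. Both measures come from the same 2 intensities, so these are descriptions only.

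Difference and order along the gene had a Spearman rho of -0.23 over 28 probe sets and -0.17 over the 25 that were not dim. The first 14 had a mean of -0.96 ± 0.52 and the last 14 one of -1.09 ± 0.26. Without the 3 dim probe sets, all of which lie in the first 14, the mean of the first part was -1.07 ± 0.17. The difference was thus of similar size on the 5′ and 3′ sides once the dim probe sets were set apart.

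The spread over probe sets depended on those 3. With all 28, TNRC6A had an SD of 0.41, against a median SD of 0.27 over the 1804 genes with at least 10 probe sets, and 49 of these genes including TNRC6A had an SD as large. Without probe sets under the 1st percentile of level, the SD was 0.22 over 25 probe sets, below the median of 0.26 over 1784 genes, and the mean was -1.08. Leaving out number 17 as well gave -1.11 ± 0.16 over 24. Leaving out probe sets by level was chosen after their values had been seen.

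Few genes in the table had a lower mean. Of 2742 genes with at least 4 probe sets, 10 (0.365%) lay 2-fold or more below the median gene by their means, and TNRC6A was the highest of these 10. It had the second most probe sets of them after the receptor IGF2R. The others were CCND2, IGKV1-5, ANXA4, TEAD2, IGKC, TFDP1, MMP3 and NOS3, each with 4 to 13 probe sets. With 2 arrays, the only likeness between genes that can be measured is the size of the difference. Among genes with at least 10 probe sets the 5 nearest in mean were NOS3, DAB2, ITGB4, TFDP1 and IGF2R.

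Each of these 5 was lower at every probe set, which their choice by a low mean makes likely. Of the 1804 genes with at least 10 probe sets, 134 had a share below the median gene at least as large as that of TNRC6A, itself included. NOS3, the endothelial nitric oxide synthase, had mean log2 levels of 8.86 (control) and 8.11 (knockdown), a relative difference of -1.03 ± 0.22 over 13 probe sets. DAB2, an endocytic adaptor, had -0.98 ± 0.28 over 17. ITGB4, the integrin beta 4 chain, had -0.96 ± 0.34 over 15. TFDP1, the dimerisation partner of E2F factors, had -1.11 ± 0.34 over 11. IGF2R, the mannose-6-phosphate and insulin-like growth factor 2 receptor, had -1.13 ± 0.27 over 52. Their means lay within 0.10 of that of TNRC6A.

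**Figure D3:**
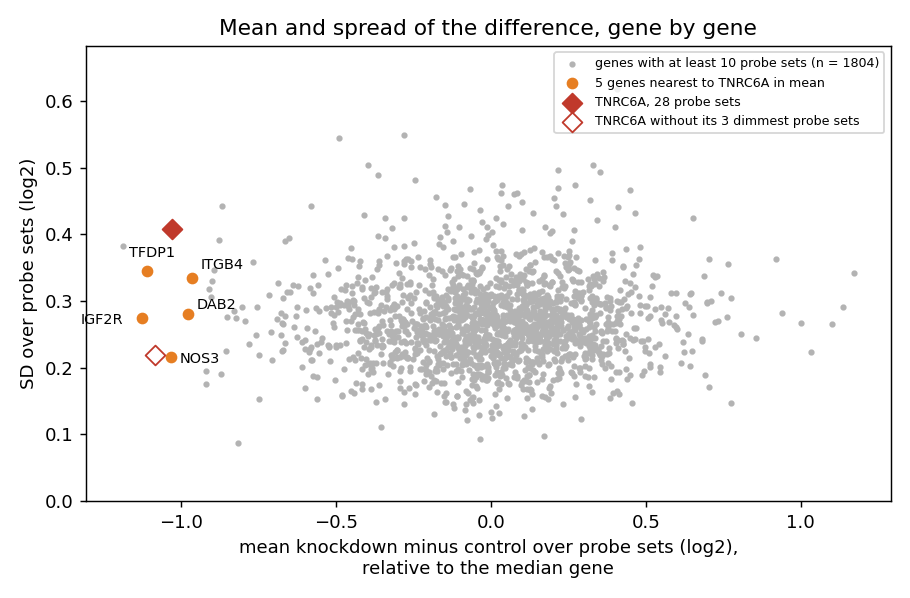
Mean knockdown minus control over probe sets relative to the median gene (log2, horizontal axis) against the SD over probe sets (log2, vertical axis) for 1804 genes with at least 10 probe sets (grey), the 5 genes nearest to TNRC6A in mean (orange) and TNRC6A (diamonds). The filled diamond is all 28 probe sets (-1.03, SD 0.41) and the open diamond the 25 that were not dim (-1.08, SD 0.22).

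The genes that work with TNRC6A lay nearer to the median gene than TNRC6A did. As TNRC6A was chosen for its low difference, most genes do, so this contrast says little about the pathway. Of 71 genes in 3 lists, namely silencing partners, decapping and P-body factors, and microRNA biogenesis, 19 were in the table with at least 4 probe sets. None lay 1.5-fold or more below the median gene, where 3.57% of 2742 genes were, and 2 were at least 1.5-fold higher, where 2.3% were. Their median was 0.02, beside 0.0020 over all 2742 genes, with 9 of 19 below the median gene and 10 above. In deposited values 1 of 19 lay below 0, where 16.6% of all 2742 genes did. The paralogs TNRC6B and TNRC6C, AGO1 and AGO4 were not among the 19, having fewer than 4 single-symbol probe sets or none.

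Among the silencing partners 10 of 26 were measured, with a median relative difference of 0.03 and none past 1.5-fold. AGO2, the Argonaute that can cut its target, had a mean log2 level of 9.41 in the knockdown and 9.10 in the control. Its relative difference was 0.02 ± 0.18 over 25 probe sets. AGO3 had 8.54 and 8.27, or -0.01 ± 0.25 over 23. By their means, both Argonautes thus lay near the median gene and above 0 in deposited values (0.31 and 0.27). The brightest probe set of AGO3 was lower, at -0.18 in deposited values, while 20 of its 23 probe sets were above 0.

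Of the 8 genes for deadenylase subunits and proteins that bind to them, 5 lay above the median gene and 3 below it, namely PAN3, CNOT4 and TOB2. Of all 2742 genes with at least 4 probe sets, 1379 lay above it and 1363 below, so this split is unremarkable. PAN2, the catalytic subunit of the PAN2-PAN3 complex, had a mean log2 level of 8.27 in the knockdown and 7.46 in the control. It was above the median gene at 20 of 21 probe sets, by 0.53 ± 0.29. Over all single-symbol probe sets, 52.1% lay below the median gene. Probe sets of 1 gene are not independent, so such counts, here and below, mostly restate the gene's mean. PAN3, the subunit that binds to TNRC6 proteins, had 8.34 and 8.30 and lay below the median gene in 20 of 25 (-0.24 ± 0.26). The partners of 1 complex were therefore on opposite sides of the median gene, while both were above 0 in deposited values (0.81 and 0.05).

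CNOT1, the scaffold of the CCR4-NOT complex, had 11.03 in the knockdown and 10.71 in the control, or 0.04 ± 0.20 over 59 probe sets. CNOT10 was above the median gene at 17 of 20 probe sets (0.32 ± 0.28). CNOT11, which pairs with CNOT10 in the complex, had 0.15 ± 0.27 over 7. The catalytic subunit CNOT8 had 0.09 ± 0.26 over 8, the ubiquitin ligase CNOT4 had -0.00047 ± 0.29 over 16, and the CCR4-NOT-binding protein TOB2 had -0.07 ± 0.24 over 5.

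Of 23 decapping and P-body genes 5 were measured, with a median of 0.02, 3 above the median gene and 2 below it. DCP1A, a co-activator of the decapping enzyme, had a mean log2 level of 8.59 in the knockdown and 7.54 in the control. It was higher at all of 9 probe sets, by 0.77 ± 0.20 or 1.71-fold relative to the median gene. AJUBA, a LIM-domain protein found in P-bodies and at cell junctions, had 10.94 and 9.85, and was higher at all of 12 by 0.81 ± 0.25 or 1.75-fold. These were the 2 genes past 1.5-fold.

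The other 3 were smaller. EDC4, the decapping scaffold, had 9.34 in the knockdown and 9.17 in the control (-0.12 ± 0.24 over 24). The scavenger decapping enzyme DCPS had 0.02 ± 0.16 over 6, a value that went below 0 under loess (-0.00019) and quantile normalization (-0.00025). GIGYF2, a translational repressor that binds to TNRC6 proteins, lay below the median gene in 34 of 39 (-0.36 ± 0.29). Its mean deposited difference was -0.08, the 1 mean below 0 among the 19 genes. At the brightest probe set of each gene, GIGYF2 (-0.05), AGO3 (-0.18), DICER1 (-0.16) and TARBP2 (-0.23) were below 0 in deposited values, and the rest above.

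Of 22 microRNA biogenesis genes 4 were measured, with a median of -0.10. DROSHA, the nuclear enzyme that cuts primary microRNAs, had a mean log2 level of 9.28 in the knockdown and 8.75 in the control and was above the median gene at 34 of 40 probe sets (0.25 ± 0.25). DICER1, the cytoplasmic enzyme that cuts the hairpin, had 8.98 and 8.97 and lay below it in 33 of 36 (-0.28 ± 0.22), which is level in deposited values (0.0034). TARBP2, the partner of Dicer, had -0.13 ± 0.38 over 9, and the cap-binding subunit NCBP2 had -0.07 ± 0.31 over 5.

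**Figure D4:**
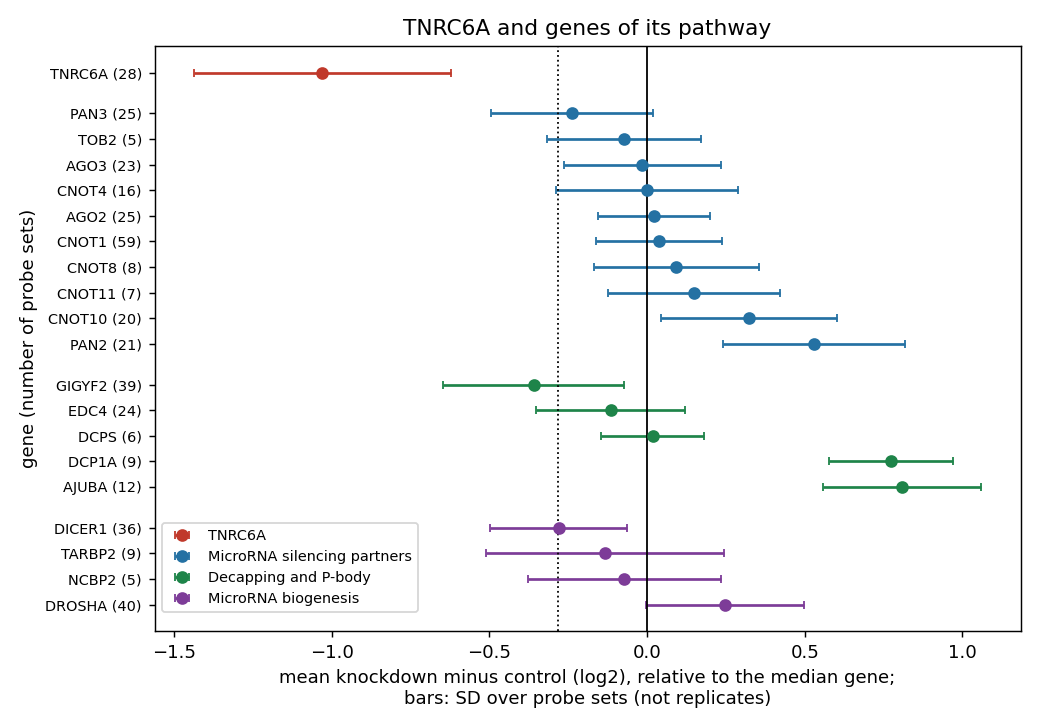
Mean knockdown minus control relative to the median gene (log2, horizontal axis) for TNRC6A and the 19 measured genes of the 3 lists (vertical axis, number of probe sets in brackets), with bars of 1 SD over probe sets, which are not replicates. The dotted line marks equal deposited values. TNRC6A, chosen for its low difference, is at -1.03, and the 19 run from -0.36 (GIGYF2) to 0.81 (AJUBA).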

How the data were processed

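The authors deposited 1 table of values for 45200 probe sets on 2 arrays. How the values were scaled, normalized and summarised, with which software and build, was not given in the sources used here. Exponentials of the deposited values under 2000 fell far more often on 1 residue of 0.5 than on others (fullest bin 1154 and 1167 values, mean per bin 82.7 and 84.2). Powers of 2 did not (117 and 115, mean 90.4). The deposited values were therefore read as natural log intensities and converted to log2.

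Symbols were updated through the RefSeq gene table of GRCh38.p14 (331 of 2795, with 2449 current and 15 kept), which gave 2792 genes. A gene's difference is the mean over its single-symbol probe sets, and the median gene's value was subtracted. With 1 array per condition no test was run, and the number of arrays limits the precision. The named genes are TNRC6A, every list member with at least 4 probe sets, the 5 genes nearest in mean, the 3 nearest measured genes on each side and PCBP2. The member and lists were chosen with earlier results of these data known. Gene summaries were run on simulated differences with known effects and independent noise of the same spread at every level. That run checks the averaging only and does not bear on spread between cultures. Alternatives were deposited values, quantile normalization, loess (fraction 0.3), reading the values as log2, other gene summaries and filters on dim probe sets. Python 3.11.15, pandas 2.3.3, NumPy 2.4.6, SciPy 1.17.1 and statsmodels 0.14.6 were used.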

Additional observations from a re-analysis of the deposited data

How the results depend on the processing

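The mean difference of TNRC6A stayed negative under every alternative run. It was -0.75 in deposited values, -1.02 after quantile normalization and after loess, -1.24 at the brightest probe set and -0.71 with the values read as log2. Values at the brightest probe set have the median over genes of their brightest probe sets, 0.20, subtracted in place of 0.28. Leaving out each probe set in turn, chosen after seeing the data, gave -1.08 to -0.998. The SD over probe sets was 0.41 in all and moved to 0.14 with only the 19 probe sets at or above the median level and to 0.22 without the 3 dimmest, which have fewer dim probe sets by construction. In deposited values the median of the silencing partners was 0.31 and that of the biogenesis genes 0.18, as the offset of 0.28 was left in. The median of the 5 decapping genes, 0.02 as reported, was 0.30 in deposited values, 0.31 at the brightest probe set and 0.35 over the 2 genes at or above the median level, and -0.00025 under quantile normalization and -0.00019 under loess. Of 41 alternatives, 37 were counted as unmoved and 4 as moved, but this count does not measure robustness. Leaving out values that occur exactly on both arrays could not change TNRC6A, which has none. Reading the values as log2 only rescales its difference. The shift of the decapping median from 0.02 to 0.30 was counted as unmoved. No paired analysis was possible because each condition has 1 array. The number of arrays limits every value: no difference could be set against a spread between cultures.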

Other observations

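The 6 measured genes nearest to TNRC6A on chromosome 16 had means from -0.62 to 0.14 relative to the median gene. On the side of lower identifiers ERN2, an endoplasmic reticulum stress kinase related to IRE1, had all 4 probe sets below the median gene (-0.62 ± 0.21). The mitotic kinase PLK1 had -0.03 ± 0.22 over 11 and the DNA repair gene PALB2 0.14 ± 0.43 over 15. On the other side GTF3C1, a subunit of the RNA polymerase III factor TFIIIC, had -0.06 ± 0.21 over 39. The sulfotransferase SULT1A1, which has close paralogs, had -0.25 ± 0.30 over 8, and the mitochondrial elongation factor TUFM -0.10 ± 0.17 over 8. In deposited values 1 of these 6 genes, ERN2 at -0.34, lay below 0, near the 16.6% of all 2742 genes that did, and TNRC6A lay at -0.75. Genes lying between these and TNRC6A were not analysed here.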
